A study of Mus musculus with 4 samples.

Results

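The SIBLING glycoproteins and the osteocalcins are secreted proteins of bone, dentin and cementum, and 7 of their genes were followed here among the 23107 genes listed in the deposited tables. The members were taken by gene symbol and not by their values: the 5 SIBLING genes Dspp, Dmp1, Ibsp, Mepe and Spp1, and the 2 osteocalcin genes Bglap and Bglap2. The RNA came from mouse dental follicles, the connective tissue sac around a growing tooth, of mandibular molars at postnatal day 8. Cells carrying a tdTomato reporter, which the labels describe as PTHrP+ follicle cells, were sorted from dissociated tissue after tamoxifen at postnatal day 3. The cKO libraries (n = 2) are labelled Ptch1(-/-) and the cHet libraries (n = 2) Ptch1(+/-), so that the comparison sets conditional loss of both copies of the hedgehog receptor gene Ptch1 against conditional loss of 1 copy. Both groups received tamoxifen and were sorted by the same reporter, and neither is a wild type. The labels name neither the Cre driver nor the strain, nor whether each library came from other animals; the p-values therefore cover differences among the libraries, part of which may be technical.

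SIBLING stands for small integrin-binding ligand, N-linked glycoprotein. These acidic proteins bind calcium and, through an RGD motif, cell surface integrins, and they are phosphorylated and cleaved on their way into the matrix. Odontoblasts, osteoblasts, cementoblasts and osteocytes make them in different proportions. Osteocalcin is a small protein of late osteoblasts whose glutamate residues are carboxylated with the help of vitamin K, which lets it bind hydroxyapatite.

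Library totals were alike, at 69677070 and 70698316 scaled counts in cKO and 69361760 and 71228342 in cHet; a scaled count is a gene's count after the authors' division by a factor common to its library. The libraries were less alike in how many genes were listed at 0, with 8152 and 8118 in cKO and 7230 and 8753 in cHet. The targeted gene Ptch1 had 22420 and 23341 scaled counts in cKO and 12867 and 5438 in cHet; as a sum over the whole transcript it does not show whether an exon was deleted. Pthlh, which encodes the PTHrP that names the sorted cells, had 12267 and 8613 scaled counts in cKO and 9253 and 15879 in cHet. Genes of enamel-forming epithelium, which the label does not name, were abundant in every library: the enamel matrix gene Amelx had 499696 and 1334660 scaled counts in cKO and 275248 and 698812 in cHet. In limma on log2(scaled count + 3), 0 of 14297 tested genes passed a Benjamini-Hochberg adjusted p of 0.05, and 433 had an unadjusted p below that value. With 2 libraries against 2, an exact permutation test of a single gene cannot go below p = 0.333.

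The SIBLING genes lie side by side on mouse chromosome 5, all on the plus strand and with no other protein-coding gene between them, in a stretch of 270339 bases (chr5:104170712-104441050, mm10). Dspp (chr5:104170712-104180127) is followed by Dmp1 (chr5:104202613-104214102), Ibsp (chr5:104299171-104311469), Mepe (chr5:104325329-104338611) and Spp1 (chr5:104435118-104441050). The osteocalcin genes are on the minus strand of chromosome 3, Bglap2 at chr3:88377736-88378699 and Bglap 4801 bases beyond it at chr3:88383501-88384464. RefSeq promoter sequences (GRCm38.p6) were matched for 5 of the 7 members, in 7 windows of 250 bases before a start site, Dmp1 and Spp1 having 2 start sites each; 1 window each of 4 members is shown, because it carries or lacks the letters ACCACA, the core that Runx factors bind. The capitals mark that core, which was searched on both strands, and none of these matches overlaps a match to TATAAA.
Bglap, chr3:88384467-88384716, minus strand: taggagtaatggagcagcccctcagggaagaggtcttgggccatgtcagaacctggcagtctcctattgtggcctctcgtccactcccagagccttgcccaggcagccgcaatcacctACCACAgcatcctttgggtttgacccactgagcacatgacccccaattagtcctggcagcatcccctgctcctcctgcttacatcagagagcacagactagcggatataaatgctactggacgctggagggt
Dmp1, chr5:104202367-104202616, plus strand: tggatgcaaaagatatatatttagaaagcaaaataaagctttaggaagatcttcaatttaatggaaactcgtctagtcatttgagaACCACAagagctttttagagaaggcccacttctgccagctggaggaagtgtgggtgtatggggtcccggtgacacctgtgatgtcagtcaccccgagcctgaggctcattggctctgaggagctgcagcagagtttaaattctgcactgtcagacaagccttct
Ibsp, chr5:104299037-104299286, plus strand: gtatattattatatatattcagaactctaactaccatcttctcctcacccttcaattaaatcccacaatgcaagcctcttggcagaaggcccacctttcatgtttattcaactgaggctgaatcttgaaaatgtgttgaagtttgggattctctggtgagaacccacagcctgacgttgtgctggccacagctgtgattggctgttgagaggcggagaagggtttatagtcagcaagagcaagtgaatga
Spp1, chr5:104434861-104435110, plus strand: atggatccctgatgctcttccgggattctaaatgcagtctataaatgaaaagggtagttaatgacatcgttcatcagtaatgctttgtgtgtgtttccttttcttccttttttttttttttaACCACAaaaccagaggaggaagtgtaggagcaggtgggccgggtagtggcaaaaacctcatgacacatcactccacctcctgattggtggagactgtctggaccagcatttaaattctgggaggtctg
The core was in 4 of the 7 windows: that of Bglap, the window shown for Dmp1, the window shown for Spp1, and that of Mepe, which held it 2 times. It was absent from the window of Ibsp and from the windows of the other start sites of Dmp1 (chr5:104197325-104197574) and Spp1 (chr5:104435942-104436191). Among 32851 promoter windows of the same length 14% held it. A match is a description of letters and not a site shown to be bound.

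Of the 7 genes, Dspp and Bglap lay lower in either cKO library than in either cHet library, Dmp1, Bglap2, Ibsp and Spp1 overlapped between the groups, and Mepe was at or near 0 throughout. Mepe did not pass the filter on low values (10 scaled counts or more in 2 libraries or more), and the other 6 were tested; none of these was below 18.32 in any library. In limma 0 of the 6 were called at an adjusted p of 0.05, where percent called over all genes was 0% higher and 0% lower. Groups did not overlap for 2 of the 6, both lower in cKO, against 14.2% of all tested genes lower, 18.0% higher and 32.2% in either direction. At an unadjusted limma p under 0.05 there was 1 member, Dspp, lower in cKO, against 1.49% of all tested genes lower and 1.54% higher. The median log2 fold change (cKO minus cHet) of the 6 was -1.88, against 0.12 over all tested genes. In sorted pools such as these, fewer cells of a type and less RNA per cell cannot be told apart.

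**Figure D1:**
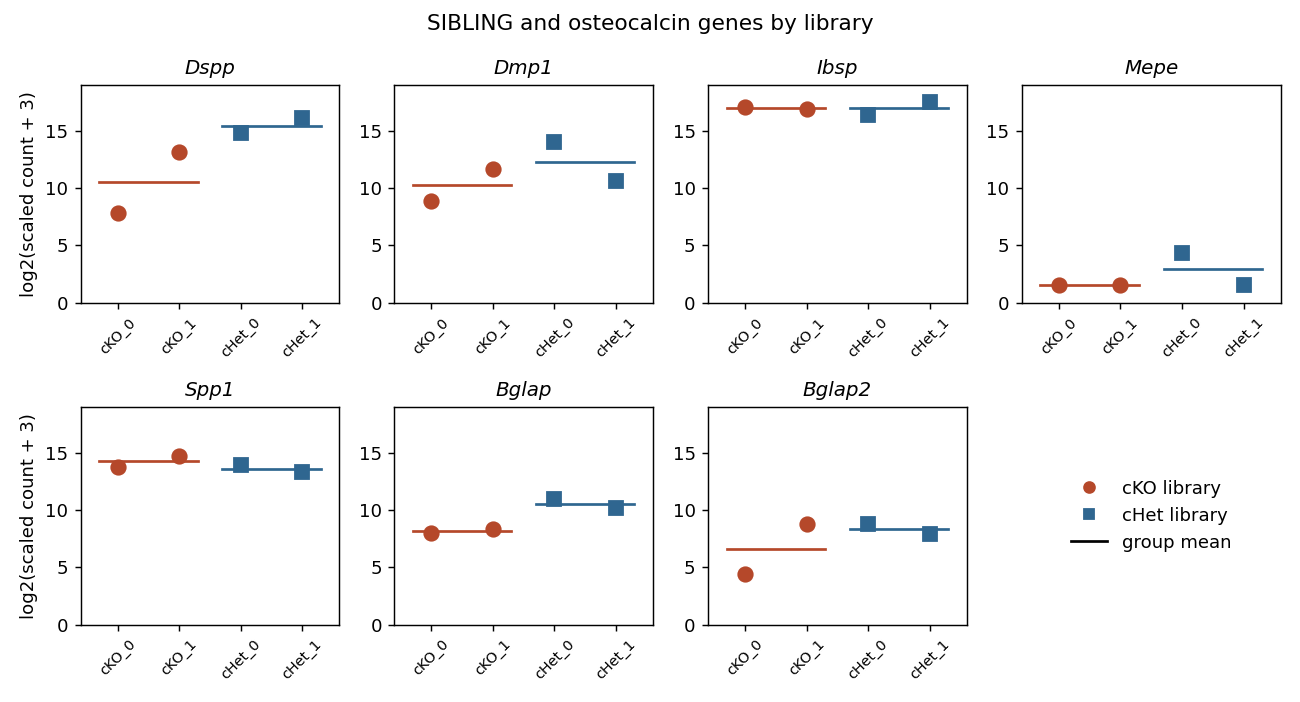
Level of each of the 7 genes in each library, as log2(scaled count + 3); circles are cKO libraries, squares cHet libraries, and horizontal lines the group means on that scale (n = 2 each). For Dspp and Bglap each circle lies below each square, whereas Ibsp stands near the top in every library and Mepe at or near 0.

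Dspp, which encodes the dentin sialophosphoprotein that odontoblasts secrete into dentin, showed the widest difference among the members. It had 229.5 and 9251 scaled counts in the cKO libraries, against 27937 and 69633 in the cHet libraries. The groups did not overlap, and the cKO libraries were themselves 40.3-fold apart, against 2.49-fold between the cHet libraries. The log2 fold change was -4.91 (SE 1.39), 30.1-fold lower in cKO on the log scale (limma adjusted p = 0.913). The size rested on library cKO_0: the log2 fold change was -2.25 without cKO_0 and -7.57 without cKO_1. It was -5.57 without cHet_0 and -4.25 without cHet_1. Each of these 4 fits leaves a lone library in 1 group, whose spread cannot be measured, so no p-value is given.

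Dmp1, which encodes an acidic matrix protein of odontoblasts and osteocytes that also holds down the phosphate hormone FGF23, followed a single cHet library. It had 478.4 and 3341 scaled counts in the cKO libraries, against 16999 and 1534 in the cHet libraries. Library cHet_0 was far above the others and cHet_1 fell between the cKO libraries, so that the groups overlapped. The log2 fold change was -2.01 (SE 1.20; limma adjusted p = 0.913). It was -0.28 without cHet_0 and -0.61 without cKO_0, against -3.74 without cHet_1 and -3.41 without cKO_1. Dspp and Dmp1 therefore did not keep 1 proportion: the FPKM of Dspp over that of Dmp1 was 0.276 and 1.58 in cKO, and 0.958 and 24.9 in cHet.

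Mepe, an osteocyte and odontoblast gene whose product carries a peptide that inhibits mineralisation, was listed at 0 in both cKO libraries and in cHet_1, and had 17 scaled counts in cHet_0. Of 11 osteocyte markers outside the members 1 had its highest value in cKO_1, 4 in cHet_0 and 6 in cHet_1. The most abundant of them, Gja1, Mef2c, Cd44 and Pdpn, were highest in cHet_1, whereas Dmp1 was highest in cHet_0. Gja1 had 25642 and 83238 scaled counts in cKO and 78184 and 98828 in cHet. Sost, the osteocyte Wnt inhibitor gene, had 0 and 1.135 scaled counts in cKO and 78.54 and 0 in cHet. Fgf23 had 0 and 1.135 in cKO and 15.38 and 0 in cHet, and Ifitm5, an osteoblast membrane protein gene picked after its values were seen, had 299.5 and 901 in cKO and 2968 and 357.9 in cHet. Sost and Fgf23 did not pass the filter, and the part of osteocytes in the Dmp1 values was not tested.

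Ibsp, bone sialoprotein, which nucleates hydroxyapatite and is strongly made by cementoblasts and young osteoblasts, was the most abundant member in every library. It had 141908 and 121729 scaled counts in the cKO libraries, against 86821 and 186558 in the cHet libraries. Both cKO values lay between the 2 cHet values. The group means were 131818 ± 14269 in cKO and 136689 ± 70525 in cHet (SD, n = 2 each), with a log2 fold change of 0.05 (SE 0.37; limma adjusted p = 0.992). Its sign depended on the libraries and on the scaling: the log2 fold change was -0.51 without cHet_0, -0.06 without cKO_0, 0.16 without cKO_1 and 0.60 without cHet_1, and -0.06 with median-of-ratios scaling. A difference in Ibsp was thus not detectable beyond the spread of the cHet pair.

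Spp1, osteopontin, a phosphoprotein of mineral surfaces that macrophages and osteoclasts also make, had 13500 and 27320 scaled counts in the cKO libraries, against 15202 and 10235 in the cHet libraries. Library cKO_1 was the highest, and cKO_0 lay between the cHet libraries. The log2 fold change was 0.62 (SE 0.375; limma adjusted p = 0.913); it was 0.11 without cKO_1 and 1.13 without cKO_0, and 0.34 without cHet_1 and 0.91 without cHet_0. Macrophage genes were present as well. The summed scaled counts of 12 macrophage and leukocyte markers were 1738 and 14108 in cKO and 1847 and 9387 in cHet, and the leukocyte gene Ptprc was listed at 0 in cHet_1. Of 13 osteoclast markers, Ocstamp and Calcr were at 0 in every library and Dcstamp was at 0 in all but cKO_1, and the summed level was 31501 and 50584 in cKO and 35143 and 36179 in cHet. Both sums were highest in cKO_1, the library with the most Spp1, and next highest in cHet_1, the library with the least. Of 10 endothelial markers 9 were highest in cKO_1 as well. The part of macrophages and osteoclasts in the Spp1 values was not tested.

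**Figure D2:**
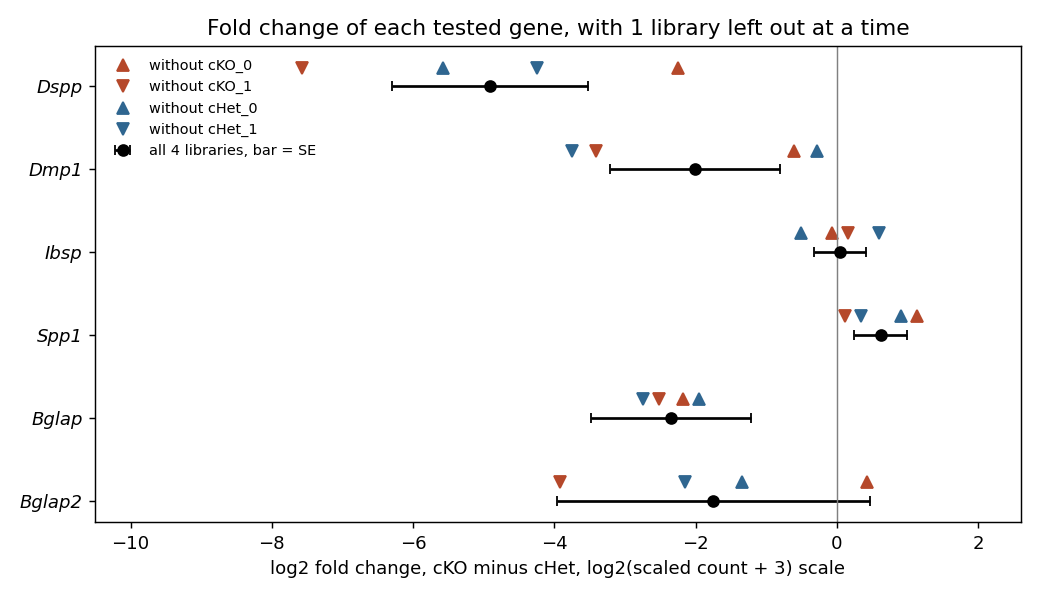
Log2 fold change (cKO minus cHet, log2(scaled count + 3) scale) of the 6 tested genes: black points are the fit to all 4 libraries with its standard error, and triangles the fits with 1 library left out. Dspp stays below 0 whichever library is left out but ranges from -7.57 to -2.25, Bglap stays between -2.74 and -1.95, and Ibsp and Bglap2 change sign.

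Osteocalcin transcripts are short, so that their scaled counts are low for their level per length. Bglap had 255.3 and 325.7 scaled counts in the cKO libraries, against 1941 and 1125 in the cHet libraries. The groups did not overlap, and the means were 291 ± 49.7 in cKO and 1533 ± 577 in cHet (SD, n = 2 each). The log2 fold change was -2.35 (SE 1.13), 5.08-fold lower in cKO on the log scale (limma adjusted p = 0.913), and it stayed between -2.74 and -1.95 whichever library was left out. The standard error comes from limma's moderation toward genes of like abundance and exceeds the spread of the 4 values themselves; without the mean-variance trend it was 0.503.

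Bglap2 did not follow Bglap in every library. It had 18.32 and 430.1 scaled counts in the cKO libraries, against 424.3 and 241.7 in the cHet libraries. Library cKO_0 was far below the rest and cKO_1 was as high as cHet_0, so that the groups overlapped. The log2 fold change was -1.75 (SE 2.22; limma adjusted p = 0.929) and turned to 0.42 without cKO_0. Bglap2 made up 6.69% and 56.9% of the 2 genes' scaled counts in cKO and 17.9% and 17.7% in cHet, an even share within cHet only.

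The split between the 2 genes is uncertain because the transcripts are close copies. Their coding sequences (GENCODE vM21, GRCm38), shown without the stop codon, differ at 4 of 285 positions, marked in capitals.
Bglap: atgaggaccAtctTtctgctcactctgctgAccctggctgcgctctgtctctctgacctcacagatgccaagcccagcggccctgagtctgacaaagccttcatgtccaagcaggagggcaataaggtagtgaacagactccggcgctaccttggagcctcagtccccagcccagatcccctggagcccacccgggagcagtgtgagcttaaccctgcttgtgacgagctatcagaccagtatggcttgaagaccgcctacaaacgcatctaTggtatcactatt
Bglap2: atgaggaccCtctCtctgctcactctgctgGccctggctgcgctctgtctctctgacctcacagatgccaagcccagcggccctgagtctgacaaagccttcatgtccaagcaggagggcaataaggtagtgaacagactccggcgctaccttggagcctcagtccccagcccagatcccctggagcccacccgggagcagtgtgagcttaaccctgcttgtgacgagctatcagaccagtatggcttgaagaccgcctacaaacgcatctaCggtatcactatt
Over the spliced transcripts, 74.7% of the 50-base windows of Bglap and 69.2% of those of Bglap2 were found unchanged in the other. Neither the labels nor the files say how the authors' counting treated reads that match both genes. The sum of both genes does not depend on how reads were divided between them, but reads dropped or counted for both would alter it. It was 273.7 and 755.7 scaled counts in cKO and 2365 and 1367 in cHet, again without overlap. Fitted as 1 feature, an alternative chosen after seeing the data, the sum had a log2 fold change of -1.97 (SE 0.9997; limma adjusted p = 0.913).

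Per length of transcript Ibsp was first in every library, and the order below it differed among the libraries, also within a group. Ibsp stood at 1073 and 428.4 FPKM (fragments scaled by transcript length and library size) in cKO and 675.3 and 568.6 FPKM in cHet, rank 27 and 95 of all genes in cKO and 42 and 53 in cHet. Spp1 came next in cKO, at 139.5 and 139.7 FPKM, and stood at 160.7 and 48.19 FPKM in cHet. In cHet, Dspp at 83.06 and 100.1 FPKM and Bglap at 99.59 and 67.61 FPKM were at a level that did not differ from Spp1 beyond the spread between the libraries. In cKO these 2 genes were lower, Dspp at 0.667 and 14.25 FPKM and Bglap at 12.64 and 16.39 FPKM. Dmp1 stood at 2.417 and 9.026 FPKM in cKO and 86.72 and 4.026 FPKM in cHet, and Bglap2 at 0.918 and 22.46 FPKM in cKO and 20.74 and 12.68 FPKM in cHet. In cKO both values of Bglap lay above both values of Dmp1. Dspp and Bglap2 overlapped there with each other and with both of these genes. Mepe was last, with 0.155 FPKM in cHet_0 and 0 elsewhere. Ibsp alone gave 87.3% and 68.0% of the members' summed FPKM in cKO and 60.0% and 71.0% in cHet. Its excess over Dspp was 1608-fold and 30.1-fold in cKO and 8.13-fold and 5.68-fold in cHet.

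**Figure D3:**
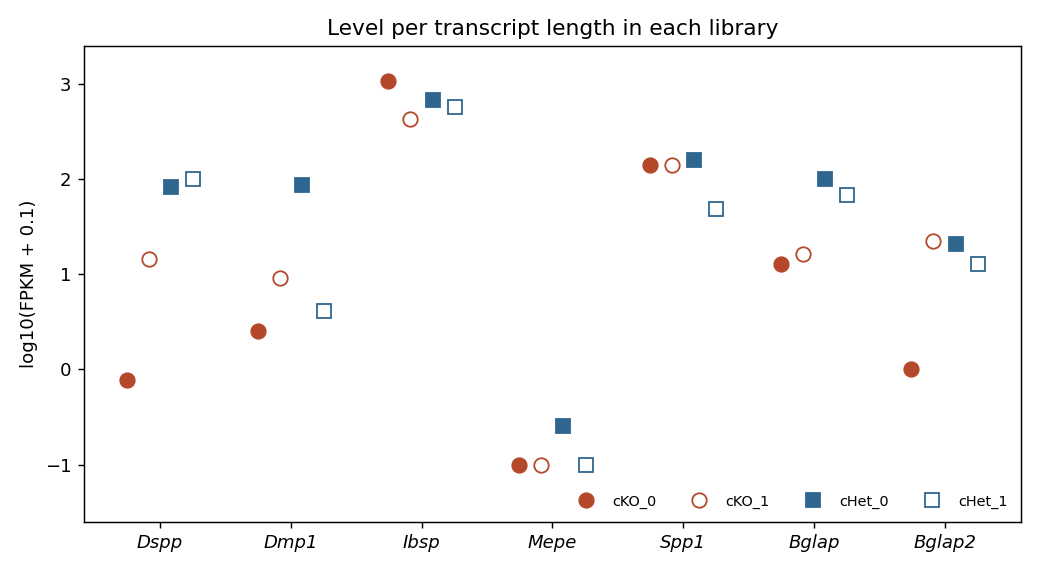
Level of each gene per transcript length in each library, as log10(FPKM + 0.1); circles are cKO and squares cHet, filled for the libraries numbered 0 and open for those numbered 1. Ibsp is highest in every library, and Dspp and Bglap are the genes whose cKO circles both lie below both cHet squares.

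The scaled counts and the FPKM values did not give the same ratios between libraries for the SIBLING genes. From the library numbered 0 to the library numbered 1, the FPKM obtained per scaled count changed by a factor of 0.466 to 0.535 for Dspp, Dmp1, Ibsp and Spp1 in cKO, and of 0.392 to 0.514 in cHet. For the osteocalcin genes the factor was 1.02 and 1.04 in cKO and 1.17 and 1.07 in cHet. Over all genes with at least 1000 scaled counts in both libraries the median factor fell with transcript length, to 0.515 in cKO and 0.457 in cHet above 4000 bases, against 1.09 and 1.14 up to 600 bases. Each group holds 1 library of either number, and Dspp and Bglap did not overlap between the groups in either unit. The order within a pair did change: Ibsp was higher in cHet_1 than in cHet_0 in scaled counts and lower in FPKM.

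**Figure D4:**
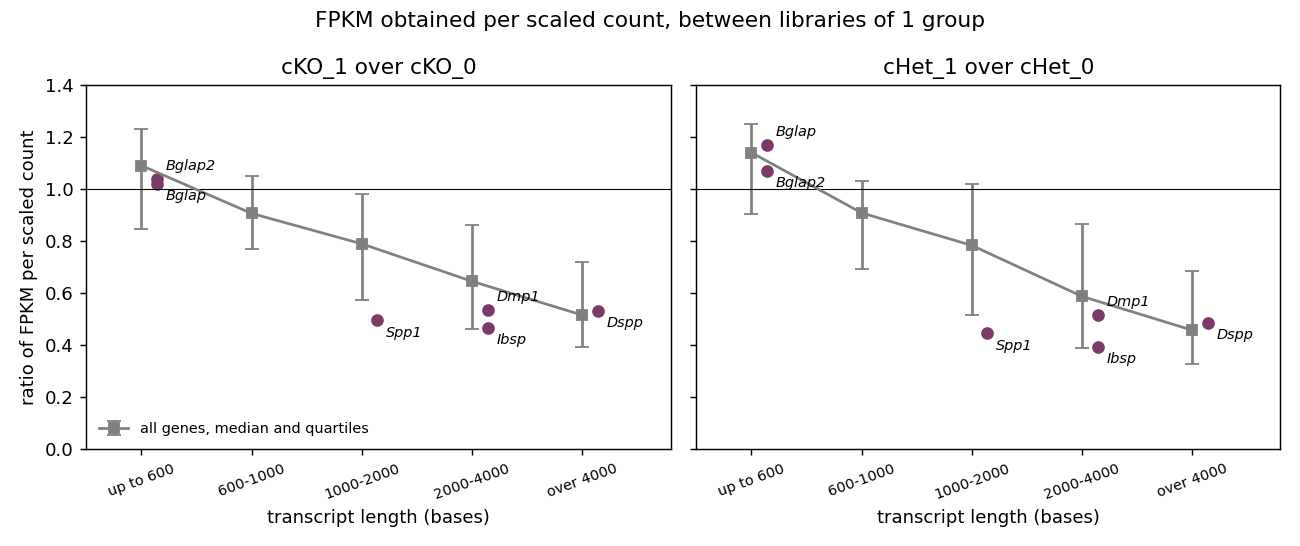
Ratio of the FPKM obtained per scaled count between the library numbered 1 and the library numbered 0 of each group, by length of the longest coding transcript; grey squares and bars are the median and quartiles of all genes with at least 1000 scaled counts in both libraries, and purple points are the members. The ratio falls with length in both groups, from above 1 up to 600 bases to about 0.5 above 4000 bases, and the short osteocalcin transcripts stand apart from the SIBLING transcripts.

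The genes whose profile over the 4 libraries was closest to each member, by Euclidean distance between centred log2 values among the 8962 or 8963 genes averaging 1000 scaled counts or more, were mostly outside the matrix genes. Closest to Dspp were Esyt3 (distance 0.638), the keratin gene Krt80 (0.962) and Ccdc88c (1.56). Esyt3 had 19.39 and 1068 scaled counts in cKO and 2292 and 4407 in cHet, the same order of libraries as Dspp. Closest to Bglap were the epithelial adhesion gene Epcam (0.358), the tooth transcription factor gene Sp6 (0.685) and the growth regulator gene Cgref1 (0.731). Cgref1 had 390 and 447.1 scaled counts in cKO and 2874 and 2923 in cHet. Closest to Dmp1 was Ifitm5 (1.37), ahead of the bone morphogenetic protein gene Bmp2 (1.87) and Leprel1 (2.04). Closest to Bglap2 were Chd7 (0.788), Tbx1 (0.892) and Gpr115 (0.904). For Ibsp they were Zbtb22, Numb and Patl1 and for Spp1 1110038D17Rik, Rundc1 and Ulk1, all at distances up to 0.0967. Among the members the nearest pair was Ibsp and Spp1 (1.58), and yet Ibsp was only the 6800th nearest of 14296 genes to Spp1; for Dmp1, Bglap2 was the 59th nearest gene (2.19). With 4 libraries such distances are a description only.

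The proteins that receive, process and carboxylate these matrix proteins were listed as well, and limma called 0 genes in either direction in any of these lists. At an unadjusted limma p under 0.05 there was 1 receptor gene, 1 regulator and 3 genes of the processing list, among them Tnfrsf11b. The vitamin K list and the wider phosphoprotein list had 0 each. Over all tested genes the shares were 1.54% higher and 1.49% lower. SIBLING proteins bind cells through integrins and CD44. Of 10 tested receptor genes 9 had lower values in cKO (median log2 fold change -0.50, against 0.12 over all genes); 3 were lower and 1 higher without overlap, against 32.2% of all tested genes in either direction. Itgav, which pairs into the main RGD receptor, had 7618 and 6556 scaled counts in cKO and 9923 and 13457 in cHet (log2 fold change -0.71, SE 0.294, limma adjusted p = 0.913). For Itga4 the log2 fold change was -1.496 (SE 0.859), for Cd44 -0.49 (SE 0.431), and for Itga9, an integrin chain that binds thrombin-cut osteopontin, 0.48 (SE 0.428). The receptor gene Gprc6a, proposed for osteocalcin, was listed at 0 in all libraries.

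Of 13 tested genes of the processing list 8 had lower values in cKO (median -0.20). Phex, the peptidase that degrades the mineralisation-inhibiting peptides cut from SIBLING proteins, had 95.89 and 339.3 scaled counts in cKO and 2763 and 3653 in cHet (log2 fold change -4.11, SE 1.11). Tnfrsf11b, which encodes the RANKL decoy receptor and not a processing enzyme, had 92.65 and 1021 in cKO and 1840 and 4149 in cHet (-3.14, SE 1.27). In both genes the groups did not overlap and cKO_0 was the lowest library, as for Dspp. The gelatinase genes differed in sign: Mmp9 had a log2 fold change of 2.199 (SE 0.408) and Mmp2 of -0.46 (SE 0.254). Each of these 4 genes had a limma adjusted p of 0.913. Fam20c, the kinase that phosphorylates SIBLING proteins, had 4140 and 7460 scaled counts in cKO and 5220 and 4192 in cHet, and overlapped.

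Among 7 tested genes of the vitamin K cycle and other Gla proteins, 4 had higher and 3 lower values (median 0.11). The carboxylase gene Ggcx had 7096 and 4801 scaled counts in cKO and 8267 and 3540 in cHet. The members with the lowest limma p were Gas6 (log2 fold change 0.60, SE 0.564), Vkorc1 (-0.32, SE 0.353), Vkorc1l1 (0.56, SE 0.854) and Pros1 (-0.15, SE 0.231). Of 18 regulators of bone and dentin matrix genes, 12 had higher and 6 lower values (median 0.05). Sp6 had 8564 and 19050 scaled counts in cKO and 62019 and 42274 in cHet, and Dlx3, a homeobox gene that acts on the Dspp and osteocalcin promoters, 11627 and 12206 in cKO and 24494 and 13075 in cHet. Both were lower without overlap, with a limma adjusted p of 0.913 each. Jund and Fosl2, which encode subunits of the AP-1 factor, were higher without overlap (log2 fold changes 0.49, SE 0.252, and 0.65, SE 0.353). Runx2, the Runx factor of osteoblasts, had 28344 and 25078 scaled counts in cKO and 23232 and 28353 in cHet.

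**Figure D5:**
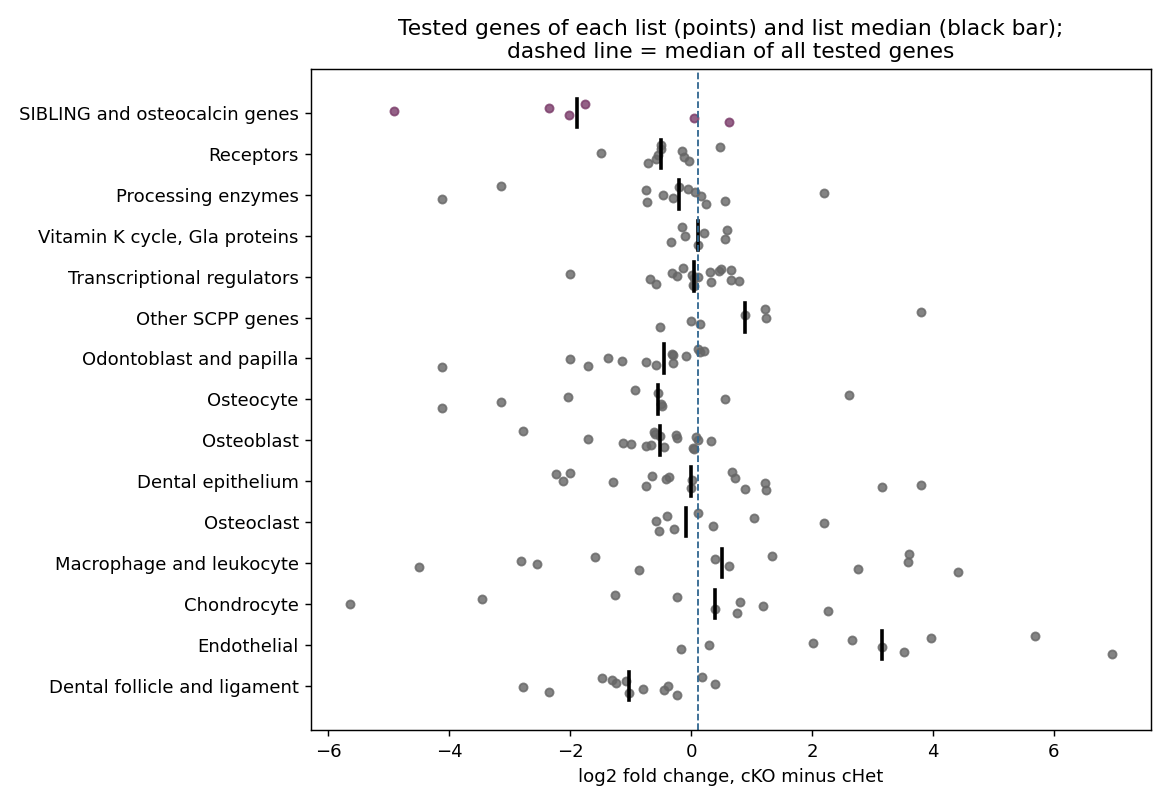
Log2 fold change (cKO minus cHet) of the tested genes of each list, 1 point a gene; black bars are list medians and the dashed line the median of all tested genes, 0.12. The median of the SIBLING and osteocalcin genes lies at -1.88. The endothelial list has its median at 3.16, with several of its genes near 0 in cHet.

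The SIBLING genes belong to the wider family of secretory calcium-binding phosphoproteins, of which Ambn, Amelx, Amtn and Odam were highest in cKO_1. The list also held the related genes Sparc and Sparcl1. Of 7 tested in that list, 5 had higher values in cKO (median 0.90) and 1, Sparc, was lower without overlap. Sparc, osteonectin, had 354506 and 361288 scaled counts in cKO and 482392 and 543177 in cHet. The enamel matrix gene Ambn had 376029 and 976072 scaled counts in cKO and 165646 and 394081 in cHet (log2 fold change 1.25, SE 0.558, limma adjusted p = 0.913). Amtn had 312.4 and 5542 in cKO and 455.1 and 16.74 in cHet, and Amelx had a log2 fold change of 0.90 (SE 0.600). Dspp is known to be made for a short time by young ameloblasts too. The summed level of 18 epithelial markers was 1008839 and 2872474 scaled counts in cKO and 695006 and 1591402 in cHet, mostly those of Amelx and Ambn. Of the 17 detected markers 11 were highest in cKO_1, 2 in cHet_0 and 4, among them Enam and Shh, in cHet_1, where Dspp was highest. Shh had 649.7 and 2875 scaled counts in cKO and 6137 and 6738 in cHet, the order of libraries of Dspp. The part of epithelial cells in the Dspp values was not tested. Within that list the genes Sp6, Shh and Epcam were lower in cKO without overlap and Cldn1 was higher, so that its members did not move together, and Cldn4 was at 0 throughout.

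Markers of the cells that make these matrix proteins, outside the members themselves, had lower values in cKO more often than higher ones. Of 14 odontoblast and papilla markers 11 had lower values (median -0.45) and 7 were lower and 1 higher without overlap, against 14.2% of all tested genes lower and 18.0% higher. Their summed scaled counts, mostly those of Col1a1, were 2267145 and 2234148 in cKO and 3922713 and 3559763 in cHet. Barx1, a homeobox gene of molar mesenchyme and among the most abundant of them, had a log2 fold change of 0.22 (SE 0.224). Of 17 osteoblast markers 12 had lower values (median -0.52) and 11 were lower and 1 higher without overlap, against the same 14.2% and 18.0% of all tested genes. Their sums were 3944722 and 3986272 in cKO and 6331081 and 6245785 in cHet. In that list the alkaline phosphatase gene Alpl had 64102 and 96330 scaled counts in cKO and 109301 and 104405 in cHet. Of 9 tested osteocyte markers 7 had lower values (median -0.54), with sums of 47930 and 116539 in cKO and 115969 and 147215 in cHet, led by the gap junction gene Gja1. Limma called 0 genes in these 3 lists. An unadjusted limma p under 0.05 was found for 5 odontoblast, 4 osteoblast and 3 osteocyte markers, against 1.49% of all tested genes lower and 1.54% higher. The lists share genes such as Phex, Smpd3 and Col1a1. Sp6, the gene of lowest limma p in the odontoblast list, is also in the epithelial list and the regulator list. The part of these cells in the values of Dspp and Bglap was not tested.

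Marker genes of other cells also had different values between libraries. Dental follicle and ligament genes had lower values in cKO in 11 of 13 tested (median -1.03). Their sums were 1139917 and 823310 in cKO and 1033480 and 1175718 in cHet. Without overlap 6 were lower, among them Lum, Postn and Col12a1, and 1 was higher, Igfbp5, the most abundant. Over all tested genes 14.2% were lower and 18.0% higher without overlap. Limma called 0 of the 13, and 6 had an unadjusted limma p under 0.05. Over all tested genes that share was 1.49% lower and 1.54% higher. Of 9 tested endothelial markers 8 had higher values (median 3.16), at summed levels of 7523 and 17612 in cKO and 6130 and 8438 in cHet, and Pecam1 was at 0 in cHet_0. Cartilage cells can make Ibsp and Spp1 too, and their markers summed to 8967 and 25882 in cKO and 27431 and 18625 in cHet. The defining gene of hypertrophic cartilage, Col10a1, had 0 and 1.135 scaled counts in cKO and 93.93 and 1.046 in cHet, and Ihh was at 0 in every library.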

How the data were processed

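Total RNA of sorted cells was amplified and sequenced (SMART-Seq v4 and Nextera XT, per the labels' protocols). The submitters' processing notes name mm10 as build and, without roles or order, the tools Bowtie2 (2.2.1), TopHat2 (2.0.13), HTSeq, DESeq2, Cuffdiff, Cufflinks and FastQC. The deposited signal values are scaled counts: per the file headers and values, the authors divided each library's gene counts by a common factor, whose origin the labels do not state. The authors' FPKM values are per transcript length and library size. Another 16 columns, spread over 4 tables, have names found in no label and were left out. Columns count libraries from 0 and titles from 1, so each column was given a group and not a sample.

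The values log2(scaled count + 3) of 14297 genes that reached 10 in 2 or more libraries were fitted with limma (3.58.1, in R 4.3.3), with group as the only term and a variance trend on abundance; the fit was tested on simulated data. P-values are two-sided. Fold changes on this scale understate those of low genes. Members and lists were chosen with earlier results of these data known. All 7 members are named, with up to 4 genes of lowest p of each pathway list and up to 4 of the most abundant of each marker list. Genes named beyond that (Fam20c, Runx2, Ggcx, Ifitm5 and others) were chosen after their values were seen. Of the list entries, 1 (Scpppq1) was not matched to a symbol or unique synonym. Some list genes are not reported here by name.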

Additional observations from a re-analysis of the deposited data

How the results depend on the processing

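Alternatives were 11 with all 4 libraries, 4 that leave out 1 library, and the summed osteocalcin feature, which counts for both Bglap and Bglap2. The fold changes of the 6 tested members kept their direction in 86 of 90 values. Some alternatives returned the same fold changes as the main fit, so that no direction could change there. These were the other filters, no variance trend, library weights and the replicate block. Bglap and Bglap2 did not pass the filter on a mean of 1000. Ibsp turned to -0.0584 with median-of-ratios scaling, which moved the median of all genes to 0.02, against 0.12. Dspp was called with log2(FPKM + 1) (-4.19, limma adjusted p = 0.0442), the 1 member called lower there, but not with log2(FPKM + 0.1) (-4.78, limma adjusted p = 1). Genes called numbered 3 higher and 4 lower with log2(FPKM + 1), and 1 and 1 with log2(FPKM + 0.1). Leaving out 1 library gave 0 to 1061 genes called higher (1061 without cHet_0), 0 to 78 lower and 0 to 2 members called lower. The largest counts of genes and of members came from different fits. Each such fit leaves a lone library in 1 group, whose spread cannot be measured, so no conclusion is drawn from these counts. With 1 library left out, the log2 fold changes ranged from -7.57 to -2.25 for Dspp and -3.74 to -0.28 for Dmp1. They ranged from -0.51 to 0.60 for Ibsp and -3.92 to 0.42 for Bglap2. The cause of these ranges was not tested. With the column number as a replicate block 0 genes were called (Dspp -4.91, SE 0.80, limma adjusted p = 0.672). The numbers are not shown to pair the libraries: within-group differences in log2 scaled counts correlated at 0.0486 across genes. Both libraries numbered 1 did share the fall of FPKM per scaled count with transcript length. The lowest scaled counts came in steps of about 1.08 in cKO_0, 1.13 in cKO_1, 0.81 in cHet_0 and 1.05 in cHet_1. If 1 step is 1 counted fragment, a scaled count stands for about 1 fragment. The low values of Bglap2 in cKO_0 and of Mepe are the least precise.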

Other observations

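Genes of enamel maturation, named after their values were seen, were highest in 1 cKO library. Klk4, the protease that clears enamel matrix, had 172.4 and 3919 scaled counts in cKO and 557.1 and 12.56 in cHet. Odam, an epithelial attachment protein gene of the same phosphoprotein family as the SIBLING genes, had 2793 and 50117 in cKO and 3715 and 6962 in cHet. Library cKO_1 thus held the most of both, together with the most Amtn, Ambn, Amelx and Spp1, whereas its Dspp lay below both cHet libraries.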
